A study of Mus musculus with 2 samples.

Results

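In adult mouse lung, 717 transcripts annotated as targets of nonsense-mediated decay were measured at 2 TPM or more in both of 2 polyadenylated RNA libraries. TPM is the level of a transcript per unit of its length, scaled to a fixed total per library. They were 15.3% of the 4687 transcripts of that annotation class in the tables, and they lay in 636 host genes. The tables held 103639 Ensembl transcripts in all, of which 19.9% reached the same level in both libraries. The members were selected on these TPM values, so their levels and the shares of their genes derived from TPM are given as a description. The transcript class came from a later GENCODE release than the one used for quantification.

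Both libraries were of lung tissue from C57BL/6J mice at 8 weeks of age, each pooled from male and female littermates, with no treatment named in the labels. The labels number them as biological replicates 1 and 2 of 1 group and give them the same donor record but separate tissue samples. The number of animals in each pool is not stated, so part or all of their spread can be technical. Values below are those of replicates 1 and 2 in that order, and with 1 group there is no comparison between conditions and no p-value.

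Expected counts, the estimated numbers of fragments per transcript, reached totals over Ensembl transcripts of 48234744 and 44182835. Lung markers were abundant in both libraries: Sftpc, the surfactant protein C gene, stood at 22806 and 22331 TPM, and the endothelial cadherin gene Cdh5 at 501 and 479 TPM. Markers of other tissues differed. Krt13 and Krt4, keratins of squamous epithelium, stood at 1725 and 1536 TPM in replicate 1 and at 0.24 TPM each in replicate 2, and Acta1, skeletal muscle actin, at 1684 and 1.09 TPM. The haemoglobin gene Hba-a1 stood at 5125 and 17648 TPM, and Muc2, a mucin gene of intestine, at 1.64 and 49.45 TPM. The part of these tissues in the values below was not tested.

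Nonsense-mediated decay degrades messenger RNAs on which the ribosome stops well before the last exon junction. Splicing leaves a protein complex near each junction, and a complex that remains downstream of the terminating ribosome recruits the UPF and SMG factors that start degradation. Many splicing regulators use the pathway to limit their own level, by splicing in a so-called poison exon that holds a stop codon. The class is assigned by annotators from the position of the stop codon, so a transcript in it has the structure of a target and was not shown to be degraded.

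Sequences around the stop codon are shown for the members on which the results turn, from the GENCODE release M21 transcripts on mm10 (GRCm38). The first is Sftpb-202, the most abundant member, from the start of its exon 7 to its stop codon in capitals, on the plus strand of chromosome 6 (chr6:72309756-72309836). Relative to the coding transcript Sftpb-204 this exon begins 70 bases further upstream; the coding transcript Sftpb-201 begins it at the same base as the member.
Sftpb-202: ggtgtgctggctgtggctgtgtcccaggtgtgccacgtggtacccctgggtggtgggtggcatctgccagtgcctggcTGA
The second is Ppia-201, whose first exon is 5 bases longer than that of the coding transcript Ppia-202 on the plus strand of chromosome 11, where it ends at 6415984 in place of 6415979; its stop codon lies at chr11:6418241-6418243, in exon 3 of 5. Both are shown over the junction of exons 1 and 2, with the 5 bases of the member alone in capitals.
Ppia-201: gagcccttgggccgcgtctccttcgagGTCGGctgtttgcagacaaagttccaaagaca
Ppia-202: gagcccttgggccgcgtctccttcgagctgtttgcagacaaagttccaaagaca

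The end of the annotated reading frame is shown for 11 further members, as the last 45 bases with the stop codon in capitals. They stand for the ways in which a member can reach its stop. In Slco2a1-203, Ptbp1-207, Clk1-211, Tardbp-228 and Smg6-202 a junction passes over an exon that is coding in another transcript, and the stop lies in coding sequence read in another frame.
Slco2a1-203: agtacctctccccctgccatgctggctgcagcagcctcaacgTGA
Ptbp1-207: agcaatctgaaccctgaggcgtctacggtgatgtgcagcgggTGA
Clk1-211: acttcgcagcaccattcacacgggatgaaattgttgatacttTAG
Tardbp-228: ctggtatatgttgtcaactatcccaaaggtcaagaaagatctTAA
Smg6-202: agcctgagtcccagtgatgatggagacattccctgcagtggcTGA
The stop codons lie at chr9:103077064-103077066 (plus strand, exon 9 of 14) in Slco2a1-203, chr10:79862473-79862475 (plus strand, exon 5 of 7) in Ptbp1-207, chr1:58419713-58419715 (minus strand, exon 4 of 11) in Clk1-211, chr4:148620716-148620718 (minus strand, exon 3 of 5) in Tardbp-228 and chr11:74990094-74990096 (plus strand, exon 8 of 17) in Smg6-202.
In Rpl12-201 and Vwf-210 a splice site absent from the coding transcripts comes before a stop in coding sequence.
Rpl12-201: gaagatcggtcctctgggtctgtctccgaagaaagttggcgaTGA
Vwf-210: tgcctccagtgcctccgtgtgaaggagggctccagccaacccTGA
These stop codons lie at chr2:32962594-32962596 (plus strand, exon 3 of 7) in Rpl12-201 and chr6:125665160-125665162 (plus strand, exon 8 of 19) in Vwf-210.
In Srsf11-206 and Cirbp-201 the stop lies in an exon that no coding transcript has.
Srsf11-206: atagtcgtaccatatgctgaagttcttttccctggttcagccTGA
Cirbp-201: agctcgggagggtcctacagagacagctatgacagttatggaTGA
These exons hold the stop at chr3:158024209-158024211 (minus strand, exon 4 of 9) in Srsf11-206 and chr10:80172416-80172418 (plus strand, exon 7 of 8) in Cirbp-201.
In Hspa5-204 the stop lies in the extension of a coding exon, and in Ddx5-208 in a retained intron.
Hspa5-204: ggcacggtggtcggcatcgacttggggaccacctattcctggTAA
Ddx5-208: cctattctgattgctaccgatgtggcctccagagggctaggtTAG
Both stops are intronic relative to the coding transcripts, at chr2:34772448-34772450 (plus strand, exon 2 of 4) in Hspa5-204 and chr11:106783954-106783956 (minus strand, exon 11 of 12) in Ddx5-208.
The stop codon of Ptbp1-207, at chr10:79862473-79862475, is also that of the second member of its gene, Ptbp1-201, with the same bases before it.

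Counted over the 656 members whose length was the same in both annotation releases, the stop codon lay more than 50 nt upstream of the last exon junction in 654, or 99.7%. This distance is how the class is assigned, and it was passed by 99.3% of the 3754 other transcripts of the class. It was passed by 5 of 754 coding transcripts of the host genes at 2 TPM or more, or 0.663%. Among members the exceptions were Cyb5a-201, of the cytochrome b5 gene, at 45 nt and Rin2-210, of a Ras effector gene, whose stop lay 73 nt downstream of its last junction. The second was named after its values were seen. The median distance was 367.5 nt in the members, with an interquartile range of 169.75 to 840.5 nt, against 329 nt in the other transcripts of the class. A median of 3 junctions followed the stop in the members and in the other transcripts of the class, and 0 in the coding transcripts.

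**Figure D1:**
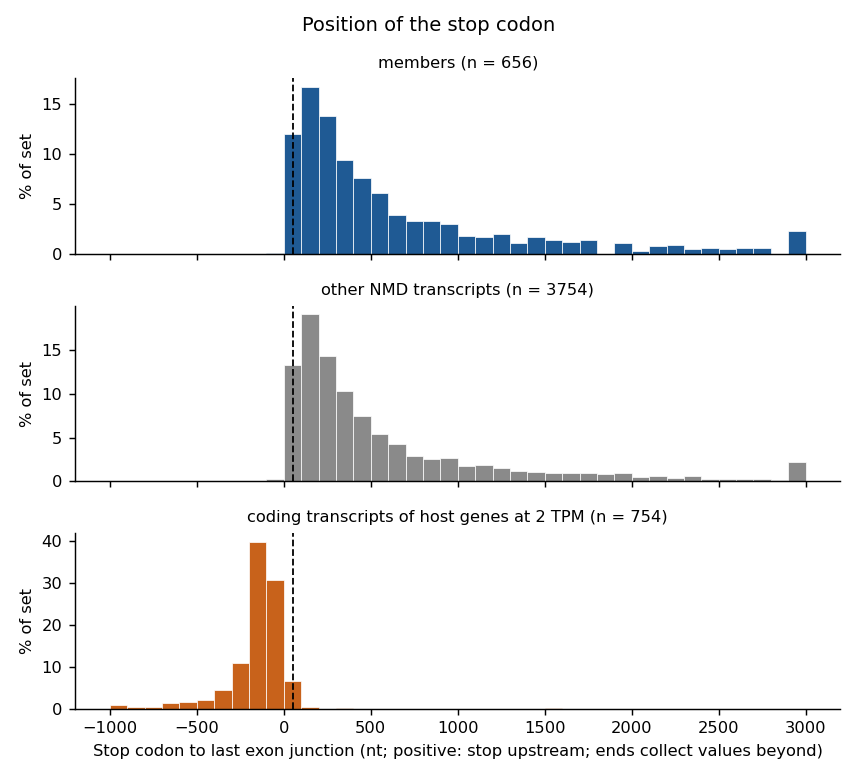
Distance in nt from the stop codon to the last exon junction (x axis, 100-nt bins, values beyond either end collected in the end bins) against the percent of transcripts (y axis), for 656 members, 3754 other transcripts of the class and 754 coding transcripts of the host genes. The dashed line is at 50 nt; 654 members and 5 coding transcripts lie to its right.

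The annotated reading frames of the members were short. Their median was 330 nt, against 1416 nt in the coding transcripts of the same genes, and relative to the longest coding frame of the gene it was 26.7%. In 306 members the frame reached under 25% of the longest one, and in 39 it reached 90% or more. The start of the frame was not annotated in 159 members, or 24.2%, which shortens these values.

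The stop lay within exons that are coding in another transcript, read in another frame, in 398 of the 656 members, or 60.7%. It lay in an exon absent from coding transcripts in 95, in an extension of a coding exon in 85 and in a retained intron in 10. In the other transcripts of the class these shares were 56.5% in coding exons and 21.2% in an extra exon, against 14.5% of members in an extra exon. In 172 of the 398, a junction upstream joined known splice sites over a coding exon, and in 200 it used a splice site that no coding transcript has.

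In 55 members the stop was that of a coding transcript, so that the frame ended normally and a junction followed it. In 22 of these the frame was as long as the longest of the gene, and 10 of the 22 held the highest TPM of their gene in both libraries. Lpl-203, a transcript of the lipoprotein lipase gene named after its values were seen, is of this kind. It has the full frame of 1422 nt, and its stop lies 61 nt before the last junction. Lpl-203, 1900 nt long, stood at 49.5 and 64.2 TPM. The coding transcript Lpl-201, 4115 nt long, stood at 23.2 and 14.2 TPM. By expected counts Lpl-203 held 47.8% and 66.0% of the gene and Lpl-201 held 51.8% and 33.7%, so the order in replicate 1 was the reverse. Hnrnpdl-201, of an RNA-binding protein gene, also has the full frame and stood at 14.4 and 17.96 TPM.

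The stop codon of members was TGA in 62.2%, TAG in 20.3% and TAA in 17.5%. In the other transcripts of the class TGA stood at 56.9% and TAA at 23.6%, and in the coding transcripts of the host genes at 53% and 21.4%. These shares describe annotated sequences, several of which share a stop within a gene, and were not tested.

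Most members were of low abundance. The median was 6.94 TPM in replicate 1 and 6.87 TPM in replicate 2, and 190 members were under 5 TPM in both libraries. There were 213 members at 10 TPM or more in both and 8 at 100 TPM or more in both. Their expected counts had medians of 375 and 362, with an estimation SD, as deposited, of 8.32% and 8.25% of the count at the median. All transcripts of the class, members or not, took 1.62% and 1.89% of the TPM of Ensembl transcripts. Retained-intron transcripts, by the same annotation, took 6.996% and 8.81%.

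Sftpb-202 stood apart at 3881 and 5516 TPM, which was 27.6% and 32.6% of the TPM of all members. Sftpb encodes surfactant protein B, which alveolar type 2 cells need to form the surfactant film. The transcript held 78.5% and 81.1% of the TPM of its gene and 81.4% and 83.2% of its counts. The coding transcript Sftpb-204 stood at 525 and 838 TPM, and Sftpb-201, a coding transcript in the later release, at 1.06 and 1.71 TPM. Both libraries therefore placed Sftpb-202 above each coding transcript of the gene. It shared 8 exon junctions with Sftpb-204 and differed at 2, that before exon 7 and that before the last exon, which begins 3 bases further upstream in the member, so the fragments over the shared exons do not separate these transcripts. Its deposited TPM intervals, 3816 to 3861 and 5431 to 5483 TPM, lay just below its TPM in each library. They enclose its deposited posterior mean, 3839 and 5457 TPM, as the interval does for all 717 members in both libraries. An interval printed beside a TPM is therefore best read around that posterior mean. Sftpb-202 was the only member whose TPM lay outside its interval.

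The next members by mean TPM stood well below it. Hspa5-204, of the gene for the endoplasmic reticulum chaperone BiP, stood at 339 and 557 TPM. Ddx5-205, of an RNA helicase gene, stood at 229 and 495 TPM, and Ppia-201, of the cyclophilin A gene, at 360 and 322 TPM. Slco2a1-203, of the prostaglandin transporter gene, which lung endothelium expresses, stood at 136 and 193 TPM. Neither library was the higher one in all of these: the TPM of Ppia-201 was lower in replicate 2.

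Zdhhc3-202, of a palmitoyltransferase gene, stood at 104 and 216 TPM, and Cyb5a-201 at 173 and 108 TPM. Sppl3-202, of an intramembrane protease gene, stood at 157 and 123 TPM, and Tm9sf2-202, of an endosomal membrane protein gene, at 83.0 and 185 TPM. Cct4-203, of a chaperonin subunit gene, stood at 86.2 and 149 TPM. Hdac7-212, of a histone deacetylase gene, stood at 75.9 and 132 TPM, and Surf4-202, of a cargo receptor gene, at 60.8 and 128 TPM. Trf-205, of the transferrin gene, reached 55.5 and 124 TPM and was 11.01% and 15.6% of its gene. The 15 members of highest mean TPM also include Rpl12-201 and Eif4a1-201, described with their gene lists. Of the 15, 12 held the highest TPM of their gene in both libraries, and 12 were shorter than 1000 nt. By expected counts only Sftpb-202, Ppia-201 and Rpl12-201 were highest of their gene in both libraries.

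**Figure D2:**
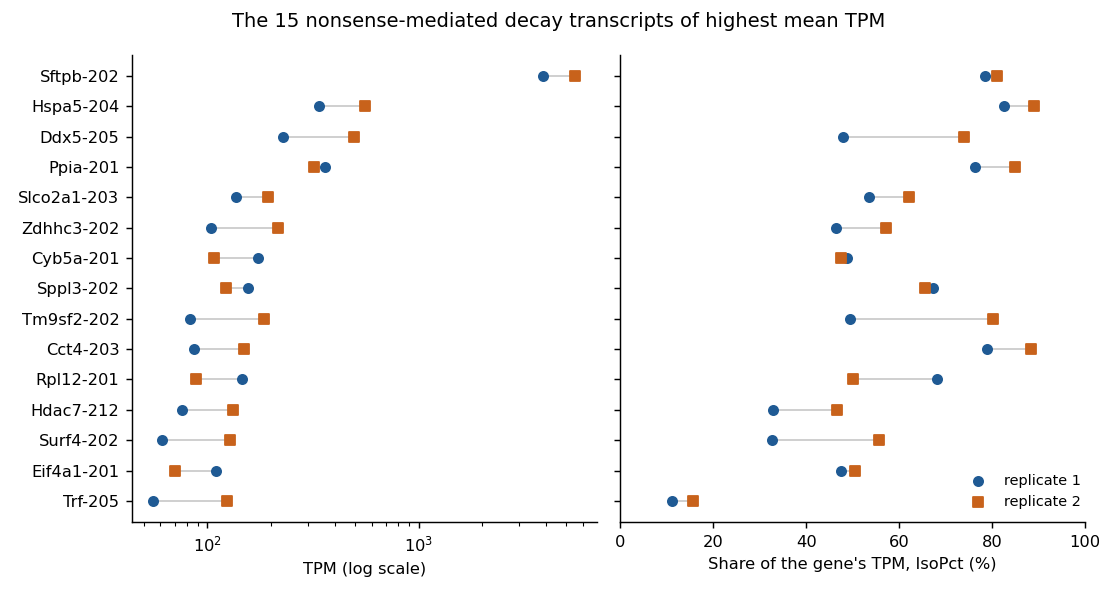
TPM on a log axis (left) and percent of the host gene's TPM (right) of the 15 members of highest mean TPM, with 1 point per library (circles, replicate 1; squares, replicate 2). Sftpb-202 lies above all others at 3881 and 5516 TPM, and the share of Ddx5-205 moves from 48.0% to 74.0% between the libraries.

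The share of the host gene's TPM on a member, deposited as IsoPct, had a median of 19.6% in replicate 1 and 21.7% in replicate 2. For 11881 coding transcripts at 2 TPM or more in genes with several transcripts, the medians were 48.2% and 47.6%, and for 2853 retained-intron transcripts 12.6% and 12.3%. In replicate 1, 115 members held 50% or more of their gene and 199 held under 10%. In replicate 2 these counts were 142 and 199.

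A member held the highest share of its gene in 209 cases in replicate 1 and 228 in replicate 2, and 173 members, or 24.1%, did so in both. In 14 of the 173 no coding transcript was listed in the tables under the gene identifier of the member. Gm20605-201 is one, annotated as a readthrough of neighbouring genes and alone under its gene identifier, at 53.5 and 59.5 TPM. Hnrnpu-206, of a nuclear RNA-binding protein gene, is another: it held 85.7% and 98.9% under 1 identifier, while the coding transcript Hnrnpu-201, at 7.84 and 7.53 TPM, was listed under another. For these 14, the share is not relative to any listed coding transcript.

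With a coding transcript listed, 159 members remained. Among them were Tesk1-204, of a testis-associated kinase gene, with 78.7% and 86.9%, and Adh1-202, of the alcohol dehydrogenase gene, with 58.8% and 58.0%; the second was named after its values were seen. Pi4k2b-203, of a phosphatidylinositol kinase gene, held 66.5% and 82.5%. Smim14-201, of a small membrane protein gene, held 40.1% and 41.8%. By expected counts the share of Tesk1-204 was 75.7% and 79.1%, whereas that of Pi4k2b-203, 656 nt long, was 29.7% and 46.6% by counts.

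TPM divides counts by an effective length, so the share of a short member differs between TPM and counts. The 52 members under 500 nt had a median effective length of 51.3% of their length in replicate 1, against 93.3% for the 275 members of 2000 nt or more. Under 500 nt, the median share in replicate 1 was 12.1% by TPM and 2.74% by counts. At 2000 nt or more it was 21.5% by TPM and 25.4% by counts. Of the 263 members under 1000 nt, 52 held the highest share in both libraries by TPM and 13 by counts. Of the 275 longest members, 69 did so by TPM and 67 by counts.

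Hspa5-204 shows the difference in 1 gene. It is 477 nt long and held 82.7% and 89.0% of the TPM of Hspa5, but 35.5% and 48.2% of its counts. The coding transcript Hspa5-202, 2613 nt long, held 62.1% and 50.1% of the counts. Over all members, 116 had the highest expected count of their gene in both libraries, and 89 had both the highest count and the highest TPM.

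**Figure D3:**
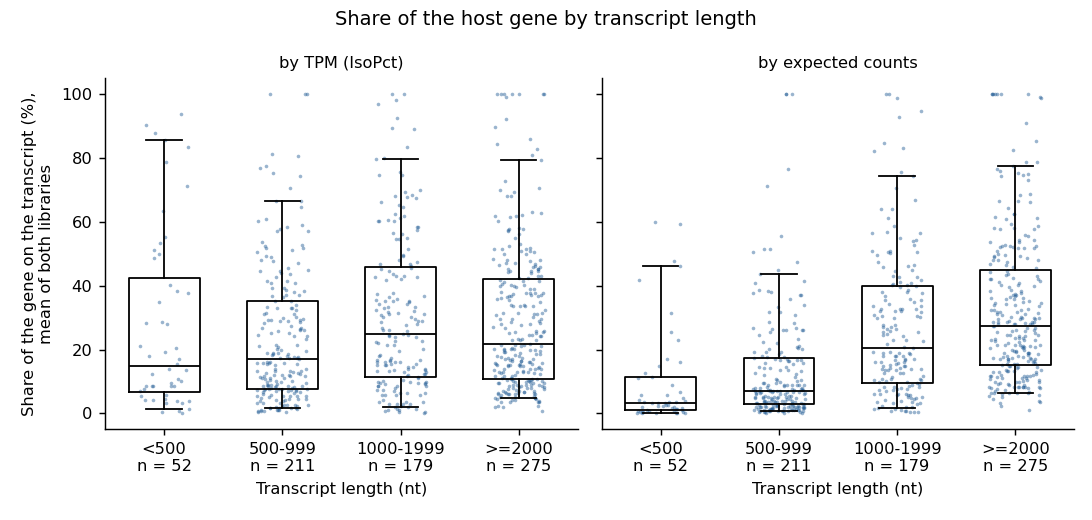
Share of the host gene on each member (y axis, percent, mean of both libraries) by transcript length (x axis, nt), by TPM on the left and by expected counts on the right. Points are members, boxes span the quartiles with the median as a line, and whiskers reach the 5th and 95th percentiles; the 52 members under 500 nt sit much lower by counts than by TPM.

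Splicing regulators, for which such transcripts are best known, gave 27 members. The share of transcripts that were members was 15.3% over the whole class. The class was not limited to genes at 2 TPM, whereas most genes of the lists below reached it. Shares of the lists above 15.3% are therefore not read as an excess. Of 13 SR protein genes, 12 reached 2 TPM in both libraries and 8 had transcripts of the class, 13 in number. Members numbered 4, in 3 genes. None of the 4 held the highest TPM of its gene in both libraries. Srsf11-206, with a stop in an extra exon, stood at 21.7 and 29.5 TPM and held 11.8% and 22.1% of its gene.

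Srsf3-201 includes an extra exon with a stop and stood at 18.7 and 4.79 TPM, from 20.7% to 5.35% of Srsf3, whose gene level was 90.4 and 89.6 TPM. Srsf6-201 stood at 17.98 and 4.20 TPM, from 26.97% to 5.17% of Srsf6, with the gene at 66.7 and 81.2 TPM. Both genes encode SR proteins that act on exon inclusion, and both members were lower in replicate 2. Their deposited TPM intervals did not overlap between the libraries: 16.5 to 20.7 and 3.24 to 6.24 TPM for Srsf3-201, and 15.9 to 19.6 and 3.25 to 5.15 TPM for Srsf6-201. The confidence level of these intervals is not stated in the files.

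Of 58 genes for hnRNP proteins and other splicing regulators, 57 reached 2 TPM in both libraries. Of the 58, 31 had transcripts of the class, 84 in number, and 18 hosted 23 members. Their median share was 19.2% and 21.9%, near that of all members, and 3 held the highest TPM of their gene in both libraries. Clk1-211, from the gene of a kinase of SR proteins, stood at 20.2 and 10.6 TPM and held 25.4% and 24.5% of Clk1, above the coding Clk1-201 at 14.7% and 10.4%. Tardbp-228, from the gene of the RNA-binding protein TDP-43, held 14.2% and 19.0%. Ptbp1-207, from the gene of the polypyrimidine tract-binding protein, stood at 40.4 and 45.1 TPM and held 17.3% and 21.9%. These shares lay within 10 points between the libraries.

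Other splicing members moved more. Ddx5-205, 879 nt long, went from 48.0% to 74.0% of Ddx5, while Ddx5-208, 3593 nt long, went from 24.2% to 8.36%. By counts Ddx5-208 was the larger in replicate 1, at 48.9% against 19.2%, and Ddx5-205 in replicate 2, at 48.9% against 27.9%. Cirbp-201, from the gene of a cold-induced RNA-binding protein, stood at 20.02 and 45.6 TPM and 11.3% and 30.4% of its gene. Hnrnpll-203, from the gene of an hnRNP L paralogue, stood at 4.02 and 9.14 TPM and 24.9% and 53.2%.

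Son-208, from the gene of a nuclear speckle protein, held 28.3% and 28.9% of Son. The remaining splicing members, from Son, Ptbp1, Ptbp3, Sf1, Hnrnpl, Hnrnpdl, Hnrnph3, Rbm3, Rbm5, Clk2, Nktr and U2af1l4, lay between 1.30% and 35.6% of their genes.

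**Figure D4:**
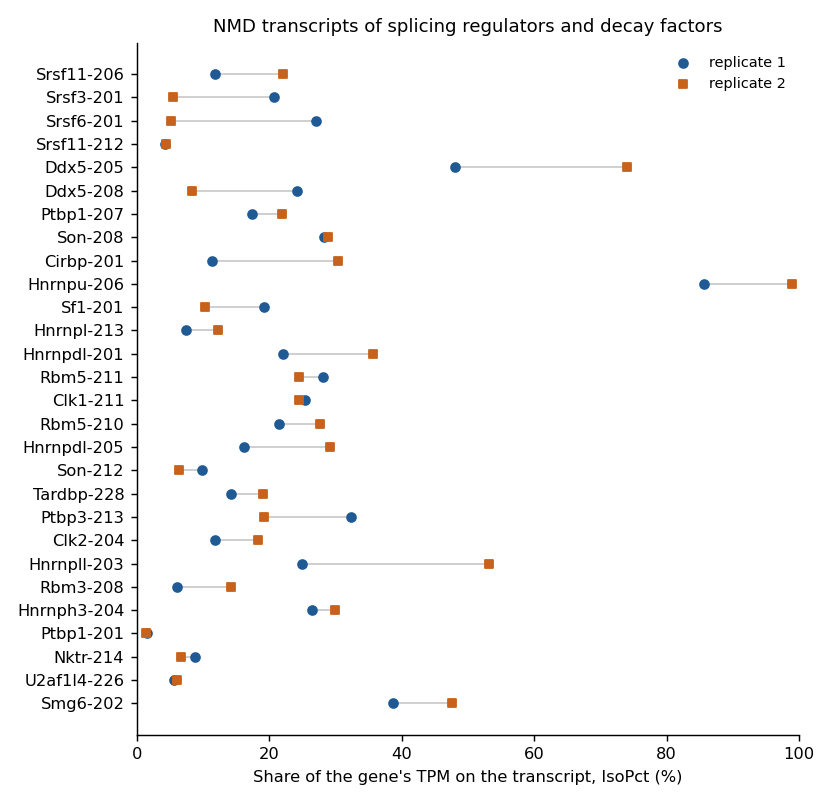
Percent of the host gene's TPM (x axis) on the 28 members from genes of SR proteins, other splicing regulators and decay factors, with 1 point per library (circles, replicate 1; squares, replicate 2). Srsf3-201 and Srsf6-201 lie at 20.7% and 26.97% in replicate 1 and near 5% in replicate 2, while Clk1-211 and Son-208 hardly move.

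Genes of the decay pathway itself were expressed: 24 of 26 reached 2 TPM in both libraries. Upf1, the helicase at the centre of the pathway, stood at 30.6 and 33.3 TPM at the gene level, and Eif4a3, which anchors the junction complex, at 78.0 and 73.8 TPM. Of the 26, 5 had transcripts of the class, 7 in number, and 1 of these was a member, against 15.3% over the whole class. It came from Smg6, the gene of the endonuclease that cuts the target. Smg6-202 stood at 13.9 and 15.8 TPM and held 38.7% and 47.6% of Smg6, above the coding Smg6-201 at 23.6% and 13.8%.

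Of 86 ribosomal protein genes, 83 reached 2 TPM in both libraries, but only 10 had a transcript of the class in the tables, 1 each, and 5 of these 10 were members. Over the whole class 15.3% of transcripts were members. Rpl12-201 was the exception in size: at 146 and 88.1 TPM it held 68.2% and 49.98% of Rpl12, against 10.2% and 14.2% for the coding Rpl12-203. Rps19-205, Rpl27a-205, Rps9-210 and Rpl10a-203 each held under 7% of their gene, with Rps19-205 at 4.19% and 4.30%. Among 69 translation factor genes, 10 had transcripts of the class, 21 in number, and 3 of these were members, in 3 genes. Eif4a1-201, from the gene of the cap-binding complex helicase, stood at 110 and 70.6 TPM and held 47.5% and 50.5%, against 41.5% and 37.3% for the coding Eif4a1-213, which held more of the counts. Eef1b2-205, from the gene of an elongation factor subunit, held 47.4% and 29.0%, and Eif4g1-222, from the gene of a scaffold of the same complex, 10.2% and 9.65%.

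Of 9 genes of polyamine metabolism, 4 had transcripts of the class, 7 in number, and 2 of these were members, in 2 genes. The share over the whole class, for this list and those below, was 15.3%. Sms-204, from the spermine synthase gene, stood at 6.84 and 9.84 TPM and held 68.5% and 81.0%, and Smox-216, from the spermine oxidase gene, at 2.12 and 2.35 TPM. None of 10 stress genes had a transcript of the class in the tables, although several, such as Atf4, are known targets of the pathway through upstream reading frames. The 17 antigen presentation genes had none either. Of 106 respiratory chain genes, 19 had transcripts of the class, 21 in number, and 6 of these were members, in 6 genes. All 6 were under 17% of their gene, led by Ndufb8-205, from the gene of a complex I subunit, at 40.9 and 11.9 TPM.

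Among 22 lung epithelial genes, 4 had transcripts of the class, 6 in number. The members were Sftpb-202 and Lpcat1-202, from the gene of a surfactant lipid acyltransferase, at 2.82 and 3.20 TPM. Among 15 endothelial genes, 4 had transcripts of the class, 6 in number, and 5 of these were members, in 4 genes. Over the whole class, not limited to genes at 2 TPM, 15.3% of transcripts were members. All 15 endothelial and all 22 epithelial genes reached 2 TPM in both libraries, so no excess is read from these counts. Vwf-210, from the von Willebrand factor gene, stood at 70.1 and 76.7 TPM and held 17.0% and 19.6% of Vwf. The coding Vwf-203, which is 8834 nt long, held 4.81% and 4.87%. By counts the shares were close, at 19.2% and 22.9% for Vwf-210 against 18.9% and 19.8% for Vwf-203. The tables list 12 transcripts under Vwf. Those named as Vwf in the later release do not make up the whole gene, so this comparison leaves part of it out. The other 4, from Ramp2, Egfl7 and Car4, lay between 0.20% and 6.27% of their genes. Since the tissue was sequenced whole, fewer cells of a type and less RNA per cell cannot be told apart.

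Of the 636 host genes, 575 had 1 member, 52 had 2, 5 had 3 and 4 had more. Tmem234, of a transmembrane protein, had 7 members among 21 transcripts, which together held 62.7% and 66.8% of its TPM, against 22.7% and 23.6% for the coding Tmem234-201. Zdhhc3 had 6 that together held 87.4% and 82.9%, led by Zdhhc3-202 with 46.4% and 57.2%. Traf7, of a ubiquitin ligase, had 6 with 15.8% and 21.1%, each at most 5.69%. Xpo6, of a nuclear exporter of actin, had 4 with 46.9% and 60.03%. Among the 5 genes with 3 members, Adamts10, of a metalloprotease-like matrix protein, had a summed share of 30.9% and 22.0%. In 9 of the 61 genes with several members the summed share was 50% or more in both libraries. Members of 1 gene share exons and hence fragments, and are not independent of each other.

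How far the fragments can tell a member from the rest of its gene differed. Each of the 656 members was compared with the other listed transcripts of its gene that matched the later release. An exon junction found in none of these was present in 516 members, 40 more had only bases of their own, and 100 had neither. Of these 100, 18 held the highest share of their gene in both libraries. The comparison left out listed transcripts without a match and was made within a gene identifier. The 11 members annotated as readthrough were therefore not compared with transcripts of the genes they run through. Transcript support level 1, the annotators' best grade, was given to 42.5% of members and 32.9% of the other transcripts of the class, and level 5, where no single RNA supports the model, to 30.1% and 39.2%. Sftpb-202, Ppia-201, Hspa5-204 and Ddx5-205 are all of level 5.

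Between the libraries, 676 members reached a mean count of 50. Of these, 91, or 13.5%, were higher in replicate 2 by 2-fold or more and 16, or 2.37%, were higher in replicate 1, on counts scaled by TMM. The background was 8.49% and 8.53% of 28619 transcripts with the same count, and 6.39% and 2.8% of the 19669 that also reached 2 TPM in both libraries. The median log2 ratio of replicate 2 over replicate 1 was 0.23 over the 714 members whose mean count was 10 or more, and 0.12 over 20589 transcripts at 2 TPM in both libraries. The members' median lay 0.12 above that of these transcripts, which include the members. This held under TMM scaling, DESeq2 size factors, library size scaling and TPM by construction. Each scaling shifts all log2 ratios by nearly the same amount, so the difference could hardly change. With library size scaling, 68 members, or 10.1%, were higher in replicate 2 and 29, or 4.29%, in replicate 1, against 4.39% and 4.31% of the transcripts at 2 TPM in both libraries. On TPM there were 56, or 8.28%, and 43, or 6.36%, against 3.52% and 5.41%. The split of the members and that of all transcripts at 2 TPM in both libraries moved together with the scaling, as such a shift brings about.

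Of the 107 members at 2-fold or more, 105 lay in genes within 2-fold, and 2 lay in genes that differed as far in the same direction. The median log2 ratio of the host genes was 0.27 for members higher in replicate 2 and 0.0076 for those higher in replicate 1. The same count was not made over all 2-fold transcripts, so it is not read as a trait of the members. The deposited TPM intervals were apart in 247 members, or 34.4%, against 49.7% of all transcripts at 2 TPM in both libraries. They were apart in 91 of the 107, which were picked for a 2-fold difference. The share among all transcripts at 2-fold was not counted, so no excess is read from this count.

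**Figure D5:**
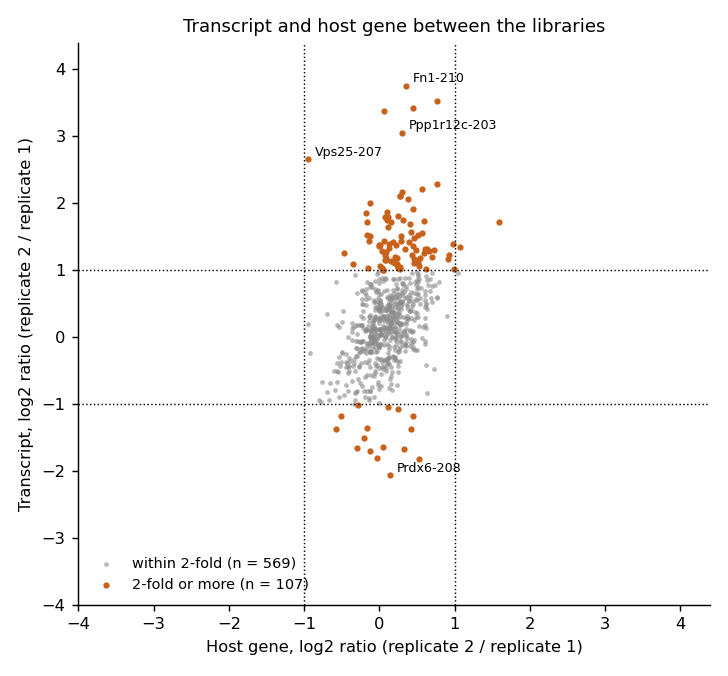
Log2 ratio of replicate 2 over replicate 1 of the host gene (x axis) and of the member (y axis) for the 676 members with enough counts, with dotted lines at 2-fold. The 107 members beyond 2-fold spread along the y axis, and 105 of them lie within 2-fold on the x axis.

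Fn1-210, of the fibronectin gene, differed most. It stood at 3.09 and 35.4 TPM, a log2 ratio of 3.76, while Fn1 as a gene stood at 156 and 209 TPM. Its interval in replicate 1 ran from 0.00033 to 5.65 TPM. Yap1-204, of the gene of a transcriptional coactivator of the Hippo pathway, stood at 4.28 and 37.4 TPM, a log2 ratio of 3.37, with an interval from 0.00012 to 8.72 TPM in replicate 1. The coding Yap1-201 went the other way, from 20.3 to 12.9 TPM. For both members the interval of replicate 1 reached down to near 0 TPM.

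Ramp2-203, of the gene of a receptor activity-modifying protein, stood at 5 and 48.3 TPM, a log2 ratio of 3.52. Of its 1478 exon bases, 1103 lie in exons of the neighbouring gene Vps25, of a sorting complex subunit. Vps25-207 was also among the largest differences, at 13.9 and 74.9 TPM and a log2 ratio of 2.66, while the log2 ratio of Vps25 as a gene was -0.95. Vps25-207 has neither a junction nor a base of its own within its gene. Tmem234-216, at 3.38 and 31.4 TPM, had neither as well and a log2 ratio of 3.43. Ppp1r12c-203, of a myosin phosphatase subunit gene, stood at 3.02 and 22.4 TPM, a log2 ratio of 3.05.

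Toward replicate 1, Prdx6-208 differed most, at 87.1 and 17.3 TPM and a log2 ratio of -2.07. Prdx6 encodes a peroxiredoxin that lung epithelium expresses, and its coding transcript Prdx6-202 went from 69.1 to 126 TPM. Srsf6-201 followed with a log2 ratio of -1.83, Papola-214, of the poly(A) polymerase gene, with -1.80 and Srsf3-201 with -1.70. Prr14-205, of a nuclear lamina-associated protein gene, had -1.68, and Actr3-212, of an actin nucleation subunit gene, -1.65. None of these host genes differed by 2-fold.

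The minimum of 2 TPM cut through a continuous range. Just inside it were Chadl-203 at 2.00 and 4.35 TPM, Exosc10-205 at 2.00 and 2.64, Fkbp8-210 at 2.32 and 2.00, Btbd19-205 at 2.37 and 2.01 and Nktr-214 at 3.57 and 2.01 TPM. Just outside were Arid3b-205 at 2.56 and 1.99 TPM, Dhx33-205 at 1.99 and 3.70, A630001G21Rik-206 at 2.33 and 1.98, Atp11a-207 at 2.25 and 1.98 and Gm49320-201 at 2.11 and 1.98 TPM. A further 181 transcripts of the class reached 2 TPM in replicate 1 alone and 148 in replicate 2 alone, and 1526 were listed at 0 TPM in both libraries.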

How the data were processed

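Per the labels, both libraries held polyadenylated, ribosomal RNA-depleted RNA of over 200 nt, read from both ends over 76 nt with strand kept. The deposited expected counts are the authors' estimates of fragments per transcript, not normalized. The deposited TPM and FPKM values are the authors' scaling of these for length and library total. IsoPct, as deposited, is the percent that a transcript takes of its gene's TPM, and the deposited bounds of a TPM interval are a signal in TPM units that encloses the deposited posterior mean TPM. Quantification used GENCODE M4 on mm10, per the deposited file lists; aligner and quantifier: not given in the sources used here.

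Transcript classes, stop codons, exons and sequences came from GENCODE M21 on mm10; 101510 of 103639 transcripts matched, and 26345 rows without an Ensembl identifier, 97 of them spike-ins, were left out. For 61 members the length differed between the releases, and they were left out of structural counts. Counts were rounded and log2 ratios computed with edgeR 4.0.16 (TMM, prior count of 2) in R 4.3.3, with DESeq2 1.42.0 size factors as an alternative. The ratio script recovered 4-fold changes on simulated data. Other steps used Python 3.11.15, numpy 2.4.6 and pandas 2.3.3. Contigs and junctions on mm9 were not used here.

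Members, lists, alternatives and the rule for names (highest TPM, highest shares, listed genes, neighbours of the minimum, largest ratios and genes with several members) were chosen with earlier results of these data known.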

Additional observations from a re-analysis of the deposited data

How the results depend on the processing

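Of 37 alternatives run, 29 left the value within its spread, within 1.5 times the count or, for the median log2 ratio, within 0.05 on the log2 scale. With a minimum of 5 TPM in place of 2, 395 transcripts of the class remained, 359 of them with a stop more than 50 nt before the last junction, by the construction of the setting. The median share of the gene, 20.6% over both libraries, was 28.8% at that minimum and 15.7% at 1 TPM. With either library left out it lay between 17.5% and 20.3%, the number of members between 865 and 898, and the number with the highest share of their gene between 234 and 254, against 173. The number with the highest share was 116 by expected counts, an alternative chosen after seeing the data. The median log2 ratio of the members was 0.067 with library size scaling and -0.024 on log2(TPM + 0.1), which turns its sign. The median of all transcripts at 2 TPM in both libraries moved with it by construction. The class took 1.75% of TPM and 1.97% of expected counts, and between 1.62% and 1.89% of TPM in single libraries; the cause of the difference was not tested. No paired analysis was possible because there is 1 group.

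With 2 libraries each spread rests on a pair of values, and the estimation SD of a count passed 20% in 86 and 58 members. Values of members without a junction or base of their own rest on shared fragments.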
